A study of Mus musculus with 6 samples.

Results

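The NMDA receptor subunit genes are the 7 members of the Grin family, Grin1, Grin2a, Grin2b, Grin2c, Grin2d, Grin3a and Grin3b. They were taken by gene symbol from a table of raw read counts with 38293 genes, and each symbol matched 1 row. RNA-seq was done on 2 groups of 3 libraries each, all of primary cortical neurons labelled WT, prepared from Swiss-Webster mouse embryos at embryonic day 16 and grown for 13 days in vitro. The NMDA libraries came from cultures given 50 µM NMDA in the bath for 10 minutes and then kept for 50 minutes without the drug, and the control libraries are labelled as untreated. The shared growth protocol also describes etoposide, which none of the 6 libraries carries as a label. The extraction protocol speaks of a smaller number of biological replicates than the 3 libraries listed per group, so the p-values measure the spread between these libraries, part of which may be technical.

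NMDA receptors are glutamate-gated cation channels that let calcium into the neuron when glutamate and a co-agonist, glycine or D-serine, are bound while the membrane is depolarised. Each receptor is a tetramer that needs the GluN1 subunit, encoded by Grin1, joined by GluN2 subunits (Grin2a to Grin2d) or GluN3 subunits (Grin3a and Grin3b), and the GluN2 type sets how long the current lasts. In the developing cortex GluN2B comes first and GluN2A is added as synapses mature. The drug NMDA is the agonist after which these receptors are named, so the comparison asks how the transcripts of its own receptor stood within the first hour after stimulation.

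The subunit genes are paralogs, so the coding sequences were compared to see how far reads could be confused between them. Grin2a (ENSMUSG00000059003) lies on the minus strand of chromosome 16 at chr16:9567898-9995560 and Grin2b (ENSMUSG00000030209) on the minus strand of chromosome 6 at chr6:135713233-136173511, both on GRCm38. Their aligned coding bases were 69.2% identical, and the longest run shared letter for letter was 24 bases. Among the 21 pairs of members, the longest shared coding run was 34 bases, between Grin2b and Grin2c. Libraries were stranded and read from one end, and the read length is not given in the sources used here.

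GluN2B transcripts fell after NMDA, GluN2A transcripts fell in the comparison within pairs, and the transcript of the obligatory subunit Grin1 was not shown to change. Of the 7 members, 6 passed the low-count filter and Grin3b did not. Without using the replicate numbers, edgeR called 1 member lower (Grin2b) and 0 higher at an adjusted p under 0.05, where 0.0546% of all 14642 tested genes were called lower and 0.376% higher. Same-numbered NMDA and control libraries deviated together, so the fit was repeated within pairs, with the replicate number as a block. It called 2 members lower (Grin2a and Grin2b) and 0 higher, where 8.35% of all tested genes were called lower and 5.65% higher. At an unadjusted p under 0.05 the fit without pairs found 2 members, Grin2a and Grin2b, beside 13.7% of all tested genes. Within pairs it found 3, the third being Grin2c, which was higher, beside 28.7% of all tested genes. Neither DESeq2 nor limma-voom called a member higher.

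Grin2b, which encodes GluN2B, was counted in 524, 705 and 704 reads in NMDA libraries 1, 2 and 3 and in 1211, 968 and 1304 reads in control libraries 1, 2 and 3. As CPM, read counts scaled to a common library size, these were 35.1, 38.8 and 37.5 in NMDA libraries and 65.6, 53.8 and 68.8 in control libraries. Every NMDA library lay well below every control library, and the NMDA libraries were much closer to each other than the controls were. The means were 37.2 ± 1.87 CPM in NMDA and 62.7 ± 7.89 CPM in control libraries (SD, n = 3 each). Grin2b fell to 59.3% of the control level, a log2 fold change of -0.75 ± 0.11 (SE; 95% interval -1.0 to -0.51; edgeR adjusted p = 0.0156), and ranked 43 by p among the tested genes. Within pairs 1, 2 and 3 the log2 differences were -0.90, -0.47 and -0.87 (block fit -0.75 ± 0.09, edgeR adjusted p = 9.00e-06). Without pairs the call was lost when NMDA replicate 2 or 3 or control replicate 1 or 3 was left out (adjusted p = 0.0696, 0.0923, 0.0648 and 0.0665), and with offsets for GC content and exonic length (-0.61, adjusted p = 0.0813). Within pairs those offsets kept it (-0.60, adjusted p = 0.000231).

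Grin2a, which encodes GluN2A, was less abundant, with 188, 194 and 146 reads in NMDA libraries 1, 2 and 3 and 334, 303 and 376 reads in control libraries 1, 2 and 3. This corresponded to 12.6, 10.7 and 7.78 CPM in NMDA libraries and 18.1, 16.8 and 19.8 CPM in control libraries. The groups did not overlap, and here the NMDA libraries were the more scattered ones, with replicate 3 lowest. The means were 10.4 ± 2.43 CPM in NMDA and 18.3 ± 1.5 CPM in control libraries (SD, n = 3 each). The log2 fold change was -0.82 ± 0.17 (SE; 95% interval -1.21 to -0.43), which did not pass without pairs (edgeR adjusted p = 0.103). It passed there without NMDA replicate 1 (-0.97, adjusted p = 0.0345), with DESeq2 (adjusted p = 0.00468) and without a low-count filter (adjusted p = 0.00276). It did not pass there with any other library left out (adjusted p = 0.165 to 0.355) or with limma-voom (adjusted p = 0.0921). Offsets for GC content and exonic length gave -0.70 without pairs (adjusted p = 0.136) and -0.71 within pairs (adjusted p = 0.00194). Within pairs Grin2a fell, by 0.84 ± 0.14 on the log2 scale (edgeR adjusted p = 0.000813), with differences of -0.52, -0.65 and -1.34 in pairs 1, 2 and 3. Pair 3 had the largest difference, and without it the change within pairs was -0.57 (adjusted p = 0.00154).

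**Figure D1:**
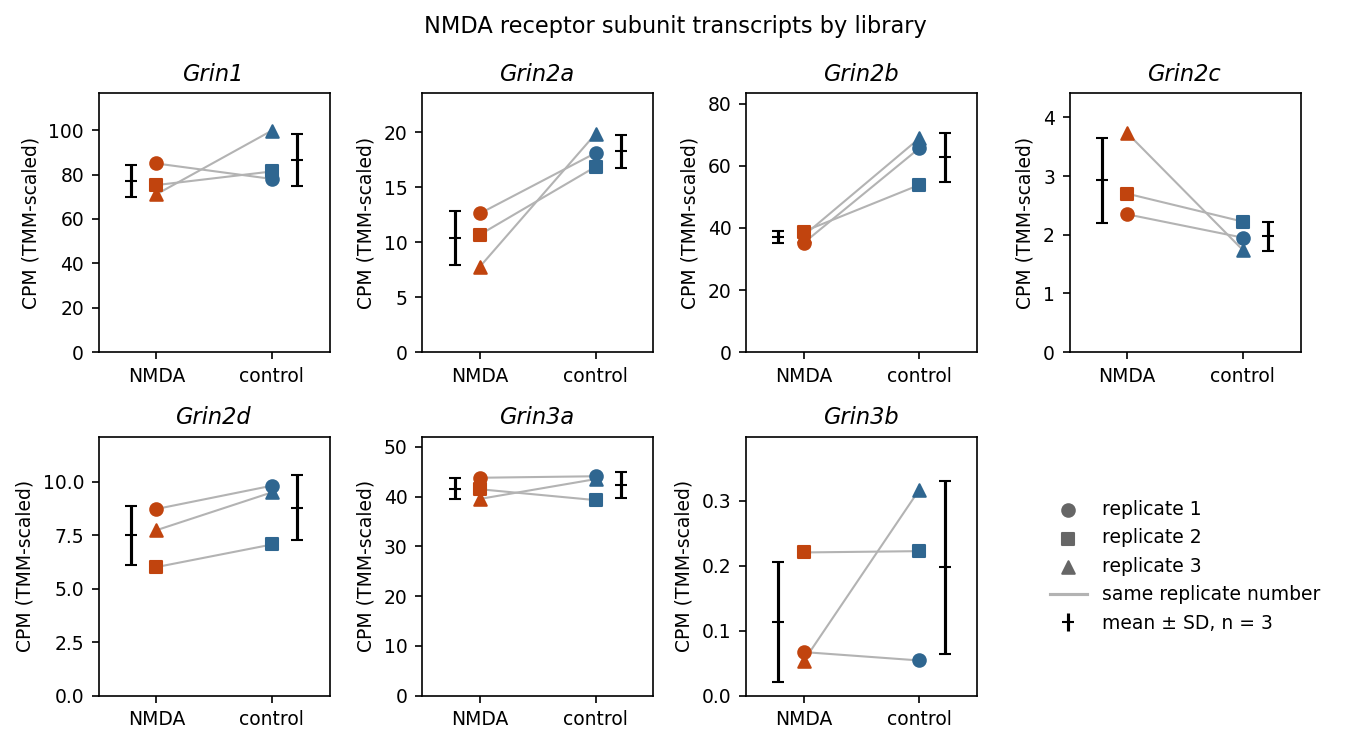
CPM (TMM-scaled) of the 7 NMDA receptor subunit genes in each library, NMDA left and control right, with grey lines joining libraries of the same replicate number and bars for the mean ± SD (n = 3). In Grin2a and Grin2b every NMDA library lies below every control library, in Grin2c every NMDA library lies above, and the other members overlap.

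Grin1 (ENSMUSG00000026959) encodes the GluN1 subunit found in every NMDA receptor. It had 85.0, 75.2 and 71.1 CPM in NMDA libraries 1, 2 and 3, against 78.0, 81.4 and 99.8 CPM in control libraries 1, 2 and 3. The groups overlapped, and the pairs did not share a direction, with log2 differences of 0.12, -0.11 and -0.49. Its log2 fold change was -0.17 ± 0.11 (SE; 95% interval -0.42 to 0.09; edgeR adjusted p = 0.554; 0.285 within pairs). Without control replicate 3, the highest library, the value was -0.047, while within pairs without replicate 1 Grin1 passed as lower (-0.29, adjusted p = 0.0112) and without replicate 3 its sign turned (0.018). On the opposite strand Grin1os, an antisense RNA, shares 1307 exonic bases with Grin1, or 13.5% of its exons, and had 13 to 28 reads in NMDA and 23 to 51 in control libraries. The strand setting of the counting is not given in the sources used here, so reads in that overlap cannot be assigned with certainty.

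Grin2c encodes GluN2C, known in mice from cerebellar granule cells and astrocytes, and was rare in these cultures. It had 35, 49 and 70 reads in NMDA libraries 1, 2 and 3 and 36, 40 and 33 reads in control libraries 1, 2 and 3, which is 2.35, 2.70 and 3.73 CPM in NMDA and 1.95, 2.22 and 1.74 CPM in control libraries. All NMDA libraries lay above all control libraries, and NMDA replicate 3 stood highest. The log2 fold change of 0.58 ± 0.26 (SE; 95% interval -0.01 to 1.16) did not pass in either edgeR fit (adjusted p = 0.370, and 0.110 within pairs), and the differences were 0.25, 0.27 and 1.05 in pairs 1, 2 and 3. Without NMDA replicate 3 the value was 0.37, and within pairs without replicate 3 it was 0.29. Of 10 astrocyte markers, 7 were higher within pairs and 0 without, beside 5.65% and 0.376% of all tested genes. The markers had a summed level of 2368 to 3606 CPM in NMDA and 2196 to 2864 CPM in control libraries, with overlap. Their part in the Grin2c value was not tested.

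Grin2d encodes GluN2D, a subunit prominent early in development and in interneurons. It had 8.72, 6.0 and 7.73 CPM in NMDA libraries and 9.81, 7.06 and 9.50 CPM in control libraries, in the order of replicates 1 to 3. It was lower in each of the 3 pairs (-0.17, -0.23 and -0.29), as were 25.7% of all tested genes, and it did not pass (log2 -0.24 ± 0.19; edgeR adjusted p = 0.621, and 0.245 within pairs). The value was -0.097 without NMDA replicate 2 and -0.37 without control replicate 2. On the opposite strand Gm45441, an antisense gene, shares 643 exonic bases with Grin2d, or 9.66% of the Grin2d exons. Reads in that overlap cannot be assigned with certainty either. Grin3a encodes GluN3A, which lowers the calcium permeability of receptors that contain it. Its NMDA libraries had 43.8, 41.5 and 39.5 CPM, against 44.1, 39.3 and 43.5 CPM in the control libraries. These values were the closest of the tested members, with a log2 fold change of -0.02 ± 0.09 (95% interval -0.23 to 0.18; edgeR adjusted p = 0.930). Grin3b, known from motor neurons, had 1 to 4 reads in NMDA and 1 to 6 reads in control libraries and was not tested in the fits with a low-count filter. In edgeR without that filter it was at -0.74 and did not pass (adjusted p = 0.767). Of its exonic bases 32.1% also belong to Tmem259 on the opposite strand, so even these few reads are not certain to be its own.

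**Figure D2:**
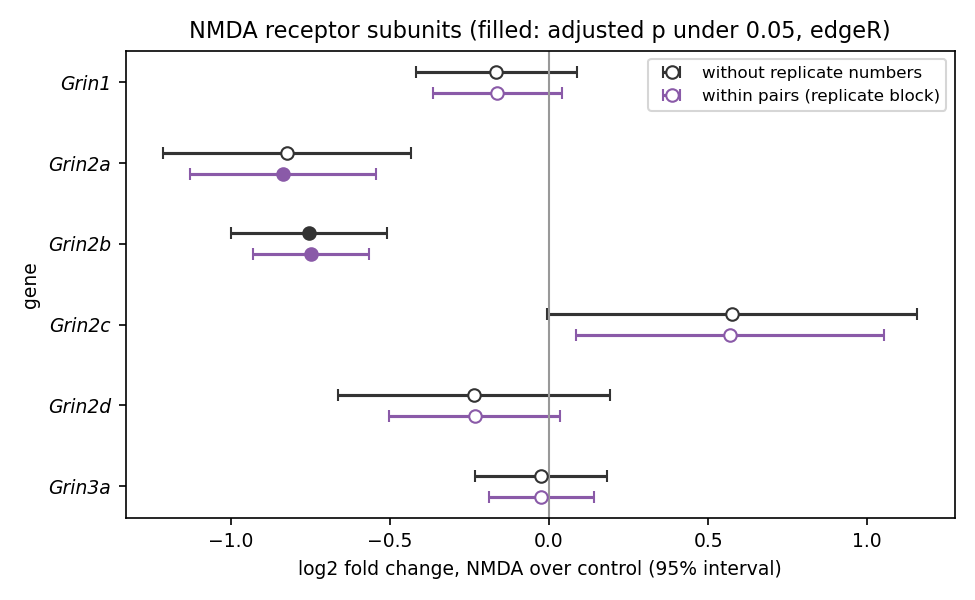
Log2 fold change, NMDA over control, of the 6 tested subunit genes with its 95% interval, from edgeR without replicate numbers and within pairs; filled points have an adjusted p under 0.05. Grin2b is filled in both fits (-0.75 in each) and Grin2a within pairs (-0.84), while the intervals of Grin1, Grin2d and Grin3a include 0 in both.

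Over all members, 5 of the 6 tested had a log2 fold change below 0, with a median of -0.20, against -0.01 over all tested genes. The 5 include Grin3a (-0.02), Grin1 (-0.17) and Grin2d (-0.24), which passed in neither fit. The share of all tested genes below 0 is not given here, and their median was also below 0. The count by itself therefore shows no shared fall of the family. The members' summed level was 188, 175 and 167 CPM in NMDA libraries 1, 2 and 3 and 218, 201 and 243 CPM in control libraries 1, 2 and 3, without overlap. This sum contains Grin2b (means 37.2 CPM in NMDA and 62.7 in control libraries) and Grin2a (10.4 and 18.3). It also contains Grin1 (77.1 and 86.4), whose groups overlapped, and Grin3a (41.6 and 42.3), which hardly differed. The sum is therefore no separate result about all members. In both groups of these bulk samples, fewer cells of a type and less RNA per cell cannot be told apart. Summed excitatory neuron markers overlapped between the groups, at 1042 to 1265 CPM in NMDA and 1194 to 1340 CPM in control libraries. Of these sums, Camk2a alone held 578, 483 and 493 CPM in NMDA and 757, 611 and 671 CPM in control libraries 1, 2 and 3. Within pairs Camk2a was lower and 2 other markers were higher, and the median log2 fold change of the 8 markers was -0.0088. The part of these markers in the members' values was not tested. Groups without overlap were seen for 3 members, Grin2a and Grin2b with NMDA below control and Grin2c with NMDA above, where 11.1% and 8.18% of all tested genes had these patterns.

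**Figure D3:**
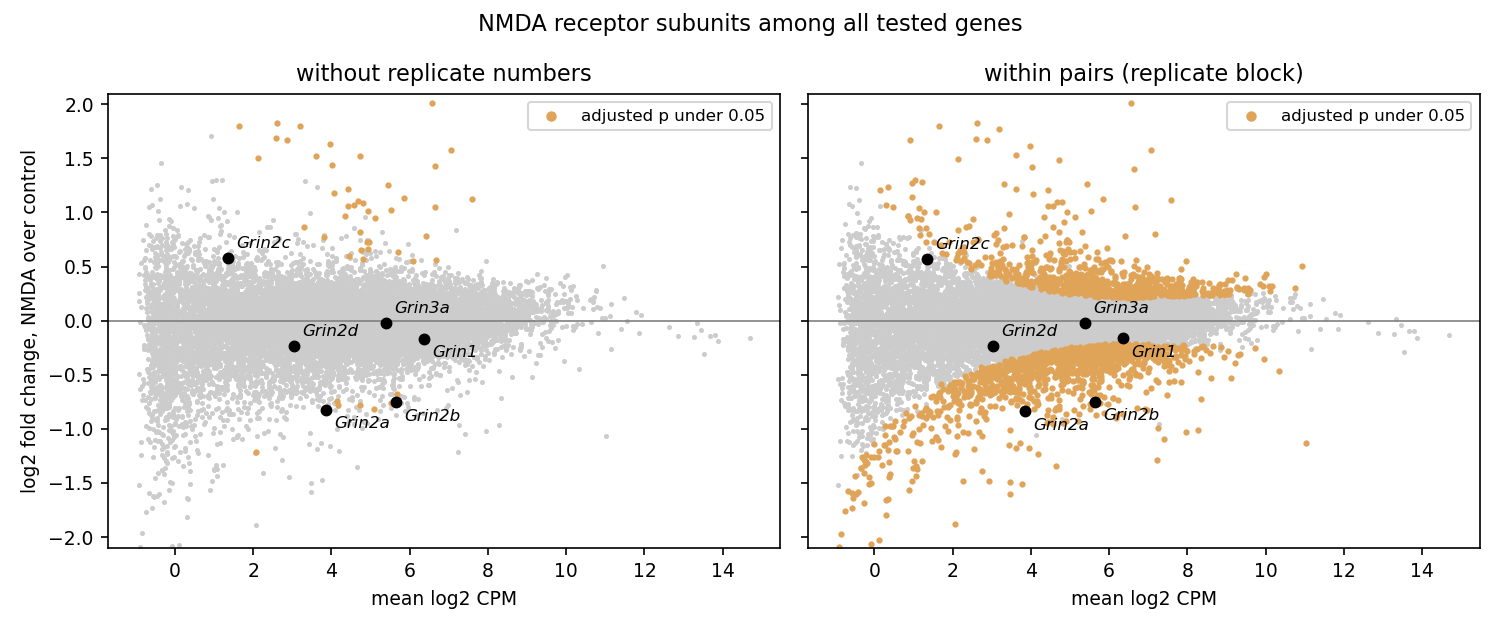
Mean log2 CPM against log2 fold change, NMDA over control, for all tested genes (grey) and those with an adjusted p under 0.05 (orange), without replicate numbers on the left and within pairs on the right; the axis leaves out 18 genes beyond 2.1 in each panel. The 6 tested subunit genes are in black, with Grin2a and Grin2b near the lower edge of genes of their abundance and Grin1 and Grin3a close to 0.

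Levels of different subunits were compared per kb of exons, as CPM per kb. The order in the NMDA libraries was Grin1 at 7.95 ± 0.734, Grin3a at 3.39 ± 0.173, Grin2b at 1.5 ± 0.0754, Grin2d at 1.12 ± 0.206, Grin2c at 0.581 ± 0.143, Grin2a at 0.578 ± 0.136 and Grin3b at 0.0345 ± 0.0281 CPM per kb (SD, n = 3). In the control libraries it was Grin1 at 8.91 ± 1.21, Grin3a at 3.45 ± 0.213, Grin2b at 2.53 ± 0.318, Grin2d at 1.32 ± 0.226, Grin2a at 1.02 ± 0.0838, Grin2c at 0.391 ± 0.0481 and Grin3b at 0.06 ± 0.0403 CPM per kb. Grin2a and Grin2c overlapped in the NMDA libraries, at 0.434 to 0.703 and 0.466 to 0.741 CPM per kb, but not in the control libraries, where Grin2a had 0.939 to 1.11 and Grin2c 0.346 to 0.441. Grin2d reached 1.31 CPM per kb in its highest NMDA library, below the 1.41 of Grin2b in its lowest, and in control libraries Grin2d and Grin2a overlapped. These orders rest on annotated lengths. With the longest transcript as the length, Grin2a stood above Grin2c in NMDA libraries (0.708 ± 0.166 against 0.598 ± 0.147 CPM per kb, still overlapping), and the highest NMDA library of Grin2d (1.61) passed the lowest of Grin2b (1.46). Grin1, at 4.28 kb against 9.70 kb for all its exons, then had 18.0 ± 1.67 CPM per kb in NMDA and 20.2 ± 2.74 in control libraries.

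The balance between GluN2A and GluN2B transcripts was not shown to shift, since both were lower. Grin2a made up 33.2%, 27.6% and 22.3% of the summed Grin2a and Grin2b level per exonic length in NMDA libraries 1, 2 and 3, and 27.6%, 30.2% and 28.5% in control libraries 1, 2 and 3. The control libraries agreed within a few percentage points, while the NMDA libraries lay on both sides of them. For NMDA replicates 1 and 3 the 95% Wilson intervals, which cover counting error only, were 29.6% to 37.0% and 19.4% to 25.6%, so these libraries differed beyond counting error. The means were 27.7 ± 5.44% in NMDA and 28.8 ± 1.32% in control libraries (n = 3 each; difference -1.11 percentage points; two-sided exact permutation p = 0.7, where 0.1 is the smallest that 3 against 3 allows; 0.7 after adjustment over the 2 shares tested). Within pairs 1, 2 and 3 the share differed by 5.56, -2.65 and -6.23 percentage points, and without NMDA replicate 3 the difference between means turned to 1.59.

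Grin1 made up 53.9%, 52.4% and 50.9% of the summed level of all members in NMDA libraries 1, 2 and 3, and 46.9%, 51.6% and 52.6% in control libraries 1, 2 and 3. The groups overlapped, with means of 52.4 ± 1.54% and 50.3 ± 3.04% (n = 3 each; difference 2.07 percentage points; two-sided exact permutation p = 0.5; 0.7 adjusted). In shares of raw counts, which give long transcripts more weight, Grin1 had 42.5% to 45.3% of the members' reads in NMDA and 35.8% to 41.0% in control libraries, a difference of 4.45 percentage points without overlap (exact p = 0.1). Relative to Grin1, the level of Grin2b per length was 0.161, 0.202 and 0.206 in NMDA libraries and 0.328, 0.258 and 0.269 in control libraries. That of Grin2a was 0.0803, 0.0768 and 0.0592 in NMDA libraries and 0.125, 0.112 and 0.107 in control libraries. Neither ratio overlapped between the groups (two-sided exact permutation p = 0.1 each, the smallest possible). Grin2b and Grin2a were themselves lower without overlap, so these ratios are a description and no separate support. Grin3a, whose level hardly differed, made up at most 22.8% of the members' summed level in NMDA and 20.9% in control libraries (means 22.4 ± 0.433% and 19.6 ± 1.42%). The groups did not overlap on this measure, but they did with the longest transcript as the length.

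**Figure D4:**
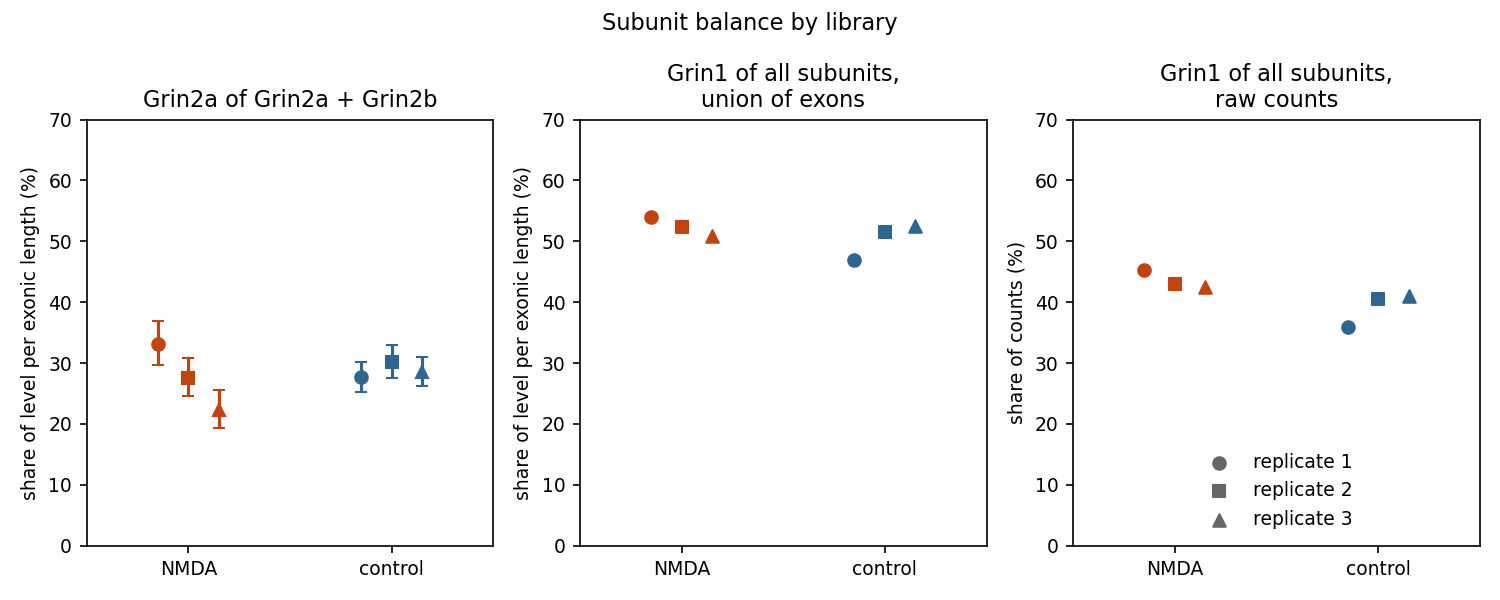
Subunit shares in each library, NMDA left and control right: Grin2a as a percent of the Grin2a and Grin2b level per exonic length with 95% Wilson intervals, Grin1 as a percent of all members' level per exonic length, and Grin1 as a percent of the members' raw counts. The Grin2a shares of NMDA libraries (22.3% to 33.2%) spread around those of control libraries, and the Grin1 shares overlap per length but not in raw counts.

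Grin2a and Grin2b share features beyond their change. Both have gene bodies over 400 kb, at 428 kb and 460 kb, while the other members span 6.48 to 184 kb. Among 328 tested genes with bodies over 400 kb, 13.1% were lower and 3.35% higher within pairs (median log2 fold change -0.06), against 8.13% and 5.95% of 12244 genes with bodies up to 100 kb (median 0.0021). Within pairs and with the GC and length offsets the values over 400 kb were 7.01% lower and 8.23% higher, against 6.64% and 7.70% up to 100 kb. The difference between the length classes was not tested, and the part of gene body length in the values of Grin2a and Grin2b was not tested. Transcripts of both genes were also the lowest in GC content among the members, at 44.8% for Grin2a and 45.7% for Grin2b, against 49.2% to 65.0% for the others.

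The genes most like a member were taken by Pearson's r of log2 CPM over the 6 libraries, which share groups and replicate numbers, among the 12712 tested genes whose log2 CPM averaged 1 or more. For Grin2b they were Ephb6, an Eph family receptor (r = 0.991), Mon2 (0.985), C1galt1, a glycosyltransferase (0.985), Nipa1, a magnesium transporter (0.981), and 2610044O15Rik8 (0.981). For Grin2a they were Chst15, a sulfotransferase (0.999), Entpd7 (0.998), Lzts1, a postsynaptic density protein (0.997), Csrnp3 (0.996) and Phtf2 (0.995). None of these passed without pairs, and within pairs Ephb6, Nipa1, Entpd7, Lzts1 and Csrnp3 fell. Since Grin2b and Grin2a were lower in NMDA libraries, genes chosen for following them in the same libraries had to be lower too. The calls of these genes, also in refits of the same libraries, are therefore a description and no separate support. Of 5 other blocked fits (with DESeq2, with GC and length offsets, and without each pair in turn), Nipa1 and Lzts1 passed in all 5, Csrnp3 in 4, Ephb6 in 3 and Entpd7 in 1. Their log2 fold changes, -0.58 for Lzts1 to -0.099 for Mon2, were smaller than those of the members they resembled. Grin2a ranked 361 among the genes most like Grin2b (r = 0.864), so libraries with little Grin2b were not in each case those with the least Grin2a.

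Of 92 genes that anchor, modify, supply, regulate or act below the receptor, in 5 lists, 87 were tested and 0 passed without pairs in edgeR (DESeq2 called 1, Dlg2, and limma-voom 0). At an unadjusted p under 0.05 there were 20, or 23% of the 87, beside 13.7% of all tested genes. Within pairs 13 fell and 6 rose, or 14.9% and 6.90%, beside 8.35% and 5.65% of all tested genes. With pairs and the GC and length offsets, 9 of the 87 fell and 9 rose. In that fit 6.64% of 12244 tested genes with bodies up to 100 kb were lower and 7.7% higher. Of 2245 with bodies over 100 kb, 5.7% were lower and 9% higher. More genes were thus called higher than lower there, unlike in the block fit without offsets, so the splits cannot be compared by themselves. Without pairs the median log2 fold change of the 87 was -0.0096, against -0.0054 over all tested genes. The same 5 other blocked fits were used to see which calls within pairs held.

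Among 24 scaffold and trafficking genes, 5 fell and 0 rose within pairs (median -0.06). Dlg2, which encodes the synaptic scaffold PSD-93, stood at 260 ± 28.7 CPM in NMDA and 360 ± 22.8 CPM in control libraries (SD, n = 3; log2 -0.47 within pairs, edgeR adjusted p = 0.000894). Dlgap2, a partner of the PSD-95 family, had 16.1 ± 2.16 CPM in NMDA and 23.2 ± 2.45 CPM in control libraries (-0.52). The Shank proteins form the deeper layer of the postsynaptic scaffold, and Shank2 (-0.35) and Shank3 (-0.29) fell, as did Shank1 (-0.42), named here after its value was seen. All but Shank3, which did not pass with DESeq2 or without pair 1, passed in all 5 other blocked fits. Of 23 kinases and phosphatases, 3 fell and 2 rose (median 0.03). Camk2a, a kinase that binds GluN2B, fell (-0.39; 518 ± 52.0 CPM in NMDA and 679 ± 73.3 CPM in control libraries), as did Dapk1 (-0.21), a death-associated kinase, and Ptk2b (-0.29). Ppp3ca, a catalytic subunit of calcineurin, rose (0.44), while Ppp3cb, another catalytic subunit, did not pass (0.14, edgeR adjusted p = 0.258 within pairs). Prkaca rose as well (0.25). Ptk2b, Ppp3cb and Prkaca are outside the naming rule. Camk2a and Ppp3ca passed in all 5 other blocked fits and Prkaca in 4, but Dapk1 and Ptk2b in only 1, without pair 1. Csnk2b was at 0.21 and did not pass.

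Of 14 tested genes for co-agonist supply and glutamate uptake, 0 fell and 2 rose within pairs (median without pairs 0.16). These were Slc1a3 (0.34), a glutamate transporter, and Glul (0.30), glutamine synthetase, named after its value was seen. Slc1a3 did not pass without pair 2, and Glul did not without pair 2 or 3. Both are known from astrocytes, and Slc1a3 is among the 10 astrocyte markers given above. Slc1a2, also in this list and among those markers, did not pass (0.15, edgeR adjusted p = 0.236 within pairs). It is outside the naming rule. The part of astrocytes in the values of this list was not tested. Phgdh (0.23) and Psat1 (0.21), enzymes of serine synthesis, did not pass. Of 12 tested transcription and chromatin regulators, 2 fell and 1 rose. Creb1, a calcium-responsive transcription factor, fell (-0.26), but passed in only 1 of the 5 other blocked fits, without pair 1. Rest, a repressor of neuronal genes, rose (0.48 ± 0.10, edgeR adjusted p = 0.00354), with 18.7 ± 1.86 CPM in NMDA and 13.4 ± 0.589 CPM in control libraries, and passed in all 5. Rcor1, its corepressor, was at -0.13 and did not pass. Of 14 downstream signalling genes, 3 fell, among them Rasgrf2 (-0.40) and Camk4 (-0.33), and 1 rose, Mapk3 (0.22). Rasgrf2 passed in all 5 other blocked fits and Camk4 in 3, but Mapk3 in 0 of them. Rasgrf2 encodes a calcium-responsive exchange factor for Ras, Camk4 a calcium- and calmodulin-dependent kinase, and Mapk3 the MAP kinase ERK1.

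Total counts were 15417234 to 18606264 in NMDA and 17860691 to 19183999 in control libraries. The activity genes Fos, Npas4 and Arc rose in NMDA libraries (log2 5.13, 3.59 and 2.65; edgeR without pairs), in the direction the treatment labels imply; without control replicate 1 or control replicate 2, Arc no longer passed (adjusted p = 0.0507 and 0.0512). All 8 excitatory and 9 inhibitory neuron markers were expressed, and the inhibitory ones summed to 607 to 652 CPM in NMDA and 557 to 591 CPM in control libraries. In pairs 1, 2 and 3 the mean log2 difference of excitatory markers was 0.24, -0.08 and -0.01. Within pairs, 1 excitatory marker, Camk2a, was lower and 2 were higher. Summed levels in NMDA and control libraries were 80.9 to 204 and 70.9 to 229 CPM for oligodendrocyte, 614 to 891 and 504 to 899 for precursor, 141 to 258 and 111 to 149 for fibroblast and mural, and 545 to 800 and 513 to 682 for cycling progenitor markers. Replicate 1 of each group held the highest oligodendrocyte sums (204 and 229 CPM, against 70.9 to 81.0 in the other libraries). It also held the highest precursor sums (891 and 899 CPM, against 504 to 645). The part of this difference in the values of replicate 1 was not tested. Microglial and endothelial markers summed to at most 4.16 and 1.60 CPM in NMDA libraries and 4.61 and 2.17 CPM in control libraries, with Cldn5 at 0 in all.

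**Figure D5:**
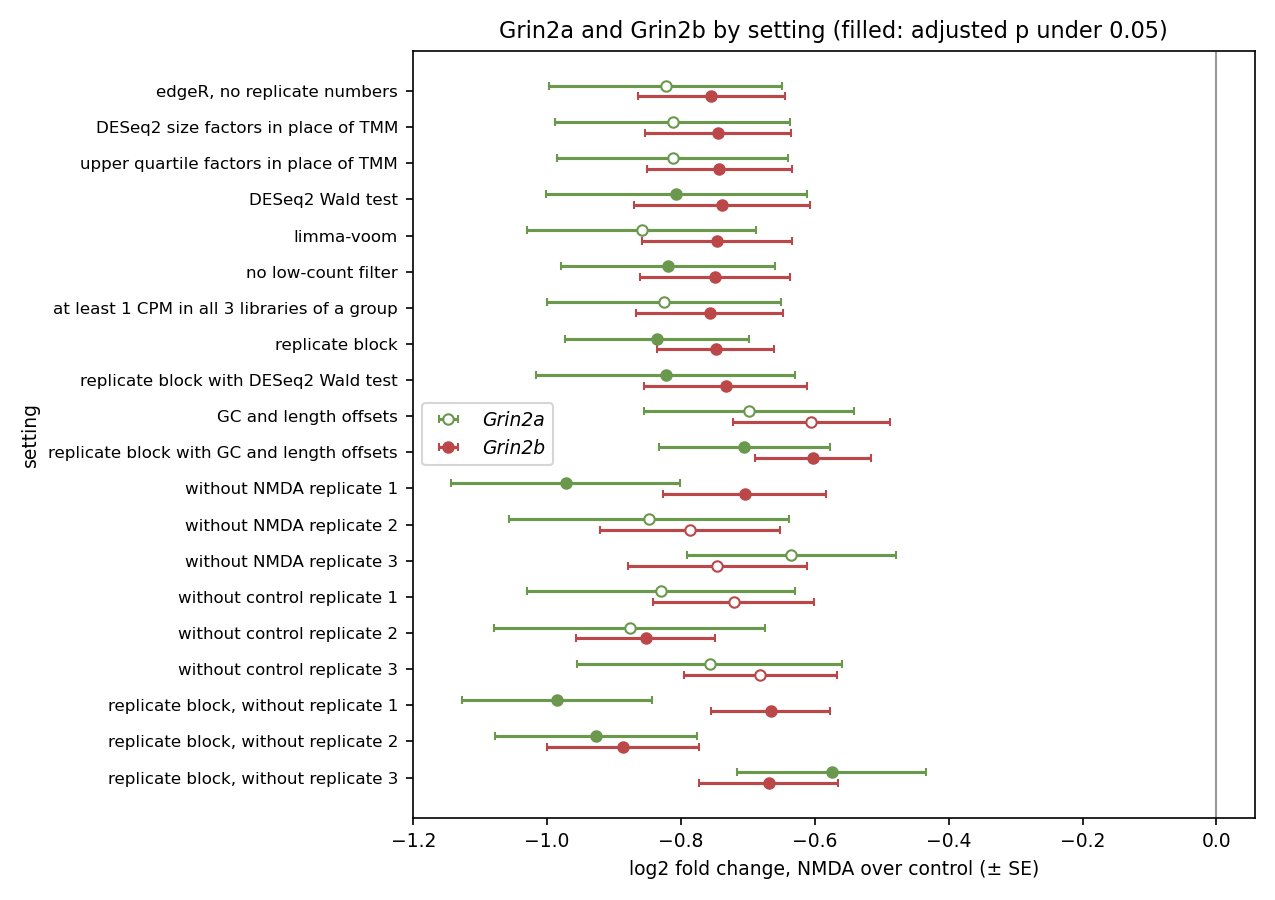
Log2 fold change (± SE), NMDA over control, of Grin2a and Grin2b under each of the 20 settings; filled points have an adjusted p under 0.05. Both lie below 0 throughout, Grin2b from -0.89 to -0.60 and Grin2a from -0.99 to -0.57, and the threshold was passed in 15 settings by Grin2b and in 9 by Grin2a.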

How the data were processed

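The authors deposited raw read counts per gene, whole numbers with Ensembl identifiers and symbols. Per the submitters' processing notes, Trimmomatic, TopHat and HTSeq were used with mm10 and GRCm38.p6. The sources used here give no versions, annotation release or strand setting. Rows without a symbol (2153, holding 0.219% to 0.246% of a library's counts) stayed in the tests. Lengths, positions and transcripts came from GENCODE M21 on GRCm38, which held 36429 of 38293 identifiers.

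Counts were tested with edgeR 4.0.16 (R 4.3.3): default low-count filter (minimum count 10, total 15), TMM scaling, robust quasi-likelihood tests of group alone, and Benjamini-Hochberg adjustment over 14642 genes (threshold 0.05). Intervals are the fold change ± its SE times the t quantile. CPM and log2 values were computed here from the deposited counts. Deviations from group means correlated at 0.54, 0.38 and 0.49 between same-numbered libraries, each over 0.1, so same-numbered libraries were treated as pairs; the pairing comes from these data, not from the labels. The block fit has 2 residual degrees of freedom, against 4. With a pair left out it has fewer still. Adjusted p-values of those fits rest mainly on variance pooled over genes and little on a gene's own spread between libraries. Same-group libraries differed beyond sampling noise (chi-square per degree of freedom 6.05 to 40.5). Shares were compared by exact permutation tests (SciPy 1.17.1).

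Alternatives used DESeq2 1.42.0, limma 3.58.1 and mgcv 1.9.3 for offsets smooth in exonic length and the GC content of the longest transcript. Scripts were tested on simulated data. All members are named, with the 4 smallest p of each list (some of these are not reported here), Fos, Npas4, Arc and the 5 genes most like Grin2b and Grin2a. Members and lists were chosen with earlier results of these data known.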

Additional observations from a re-analysis of the deposited data

How the results depend on the processing

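Without pairs, 1 subunit gene was lower. The number was 2 with DESeq2, without a low-count filter and with the replicate block (also with DESeq2 or with GC and length offsets), and 0 with GC and length offsets alone. It was 0 to 2 with a library left out, and 2 to 3 within pairs with a pair left out, where the 3 included Grin1 within pairs without replicate 1 (-0.29, adjusted p = 0.0112). No setting gave a higher subunit gene. Of all tested genes, 0.0546% were called lower and 0.376% higher without pairs, against 8.35% and 5.65% with the block. Shares over all tested genes are not given for the other settings. The counts of subunit and pathway genes therefore cannot be compared between settings by themselves. Of the other pathway genes, 0 were lower without pairs, 1 with DESeq2 or without a filter, 13 with the block, 8 with the block in DESeq2, 9 with the block and offsets, and 7 to 17 with the block and a pair left out. Higher were 0 without pairs, 6, 5 and 9 in the same blocked fits, and 2 to 10 with the block and a pair left out; a single library left out without pairs gave 0 in either direction. The Grin2a share difference ranged from -3.85 to 1.59 percentage points with libraries left out, and the Grin1 share difference from 0.33 to 3.18. Within pairs the share differences (-1.11 and 2.07) had a two-sided exact sign-flip p of 0.75 each, where 0.25 is the smallest possible. Signs turned for Grin3a with offsets (0.050, and 0.050 with the block) and with libraries left out (-0.074 to 0.048; 0.026 without NMDA replicate 3, 0.0059 without control replicate 1, 0.048 in the block without replicate 3) and for Grin1 in the block without replicate 3 (0.018); none of these values passed, and the cause was not tested. Npas4 passed in all settings but the block without replicate 1 (3.82, adjusted p = 0.0942). Few reads limit Grin2c and Grin3b.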
